A study of Homo sapiens with 4 samples.

Results

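The FOXO targets and quiescence genes are 35 human genes that act in fuel use, autophagy, exit from the cell cycle and insulin signalling, together with the FOXO transcription factors themselves. They were followed over 4 Affymetrix arrays of MCF10A, a cell line of human breast epithelium that forms no tumours. Of the probe sets that the platform annotation gives to a single gene, 1 per gene was chosen by its mean intensity over the same 4 arrays, the brightest being kept. This found 34 of the 35 genes among 19775 genes in all; the 3 probe sets of MXD4 also carry another symbol, so MXD4 has no value. The list itself was also drawn up with the differences from vector on these arrays known, so the direction of its members is a description and supports nothing by itself.

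The groups were YAP-WT, YAP-S94A, YAP-W1W2 and vector, with 1 array each. All 4 cultures carried pQCXIH, delivered as a retrovirus, which held wild-type YAP, YAP with the S94A change, YAP with the W1W2 mutation or, in the vector culture, no YAP. YAP is the coactivator that the Hippo pathway restrains, S94A lies in its TEAD-binding part and W1W2 alters its WW domains. All cultures grew in the same medium, with horse serum, EGF, insulin, hydrocortisone and cholera toxin. The labels do not say whether a culture was a pool or a clone, nor give an age or sampling time. A single array stands for each group, so nothing here has a replicate check, every difference is between 2 arrays and no test was possible. A difference is counted when it reaches 2-fold.

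FOXO proteins are forkhead transcription factors that insulin and other growth factors hold in check. Signals through PI3-kinase activate AKT, which phosphorylates FOXO proteins and keeps them out of the nucleus; when the signal weakens they return to the nucleus and switch on genes for fuel sparing, autophagy and growth arrest. Several of their targets, among them receptors and adaptors of insulin signalling, feed back on the same pathway. Epithelial cells that leave the cell cycle for quiescence usually raise many of these transcripts, which proliferating cells keep low.

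On all 4 arrays the 7 found genes of the mammary epithelium marker list were measured, with summed intensities of 116301.8 in YAP-WT, 116478.2 in YAP-S94A, 130446.0 in YAP-W1W2 and 102763.8 in vector. Single epithelial markers differed while the keratins KRT5 and KRT14 stayed within 0.29 (log2) of vector. KRT18, a keratin of luminal cells, read 16989.6 in YAP-WT, 18123.4 in YAP-S94A, 34605.0 in YAP-W1W2 and 5608.9 in vector, and the adhesion molecule EPCAM read 1215.6 in YAP-WT, 2326.9 in YAP-S94A, 3440.4 in YAP-W1W2 and 578.2 in vector. Desmoplakin (DSP) was lower, with 15650.6 in YAP-WT, 10349.1 in YAP-S94A, 9273.0 in YAP-W1W2 and 20830.6 in vector. Here measured means a mean intensity of at least 113.6, which 12759 genes and all 34 members met. FOXO4 met it through the vector array, since its mean over the 3 YAP arrays was 113.2. The 3 probe sets of YAP1 itself read 871.8 to 3908.4 in YAP-WT, 1552.2 to 4284.6 in YAP-S94A cells and 1471.9 to 4657.0 in YAP-W1W2 cells, against 1024.8 to 4085.5 in vector, and whether they lie within the constructs is not known. The 3′ to 5′ ratio of the actin control was 1.07 in YAP-WT, 1.01 in YAP-S94A, 0.964 in YAP-W1W2 and 1.16 in vector. Of 8 fibroblast markers 4 were measured, and the list summed to 5340.4 in YAP-WT, 1434.8 in YAP-S94A, 1827.3 in YAP-W1W2 and 10362.2 in vector. Decorin alone (DCN) read 3884.2 in YAP-WT, 288.0 in YAP-S94A, 248.3 in YAP-W1W2 and 9343.9 in vector. The other measured markers did not share its order. COL1A1 read 1105.4 in YAP-WT, 409.9 in YAP-S94A, 719.2 in YAP-W1W2 and 451.7 in vector. COL1A2 read 122.0 in YAP-WT, 190.1 in YAP-S94A, 232.5 in YAP-W1W2 and 99.3 in vector. THY1 read 33.7 in YAP-WT, under the floor given below, 246.0 in YAP-S94A, 316.6 in YAP-W1W2 and 240.9 in vector. COL3A1, PDGFRA, PDGFRB and LUM were not measured. HLA-DRA, VWF, CDH5, TEK, EMCN, ADIPOQ, PLIN1 and LEP were below 72.9 on every array, the floor under which intensities were not ordered. The measured markers were 2 of 6 immune (CD14 and ITGAM), 1 of 6 endothelial (PECAM1) and 2 of 6 adipocyte (CIDEC and LPL). PECAM1 read 472.6 in vector and 680.9 in YAP-WT. CD14 read 311.9 in vector and 143.9 in YAP-S94A, and was below the floor in YAP-WT and YAP-W1W2. CD3E, not measured, read 256.1 in YAP-WT and was below the floor elsewhere. The part of any of these in the results was not tested.

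Relative to vector, the members were lower in each YAP culture, and more so with the mutants than with YAP-WT. In YAP-WT 14 of 34 members were at least 2-fold lower and 0 higher, where 4.95% of all measured genes were lower and 9.11% higher. In YAP-S94A 27 members were lower and 0 higher, against 6.53% lower and 10.3% higher among measured genes, and in YAP-W1W2 24 were lower and 0 higher, against 8.40% and 11.4%. The median log2 difference of the members was -0.76 in YAP-WT, -1.72 in YAP-S94A cells and -1.47 in YAP-W1W2 cells, where the median measured gene stood at 0.14, 0.14 and 0.10. Relative to that median gene the members stood at -0.89, -1.87 and -1.58. These 3 comparisons share the vector array, and in bulk RNA fewer cells of a type and less RNA per cell cannot be told apart. On the same arrays the hybridization controls, bacterial and phage transcripts added to each sample, also differed from vector. The log2 difference of bioB was -0.47 in YAP-WT, -0.83 in YAP-S94A cells and -1.28 in YAP-W1W2 cells. Those of bioC and bioDn were -0.30 and -0.34 in YAP-WT, -0.75 and -0.79 in YAP-S94A, and -1.20 and -0.96 in YAP-W1W2. The cre control stood at 0.02 in YAP-WT, -0.20 in YAP-S94A cells and -0.51 in YAP-W1W2 cells. The 3′ probe sets of the cells' own transcripts actin and GAPDH went the other way, with 0.39, 0.57 and 0.65 for actin and 0.26, 0.47 and 0.46 for GAPDH; the part of these controls was not tested.

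**Figure D1:**
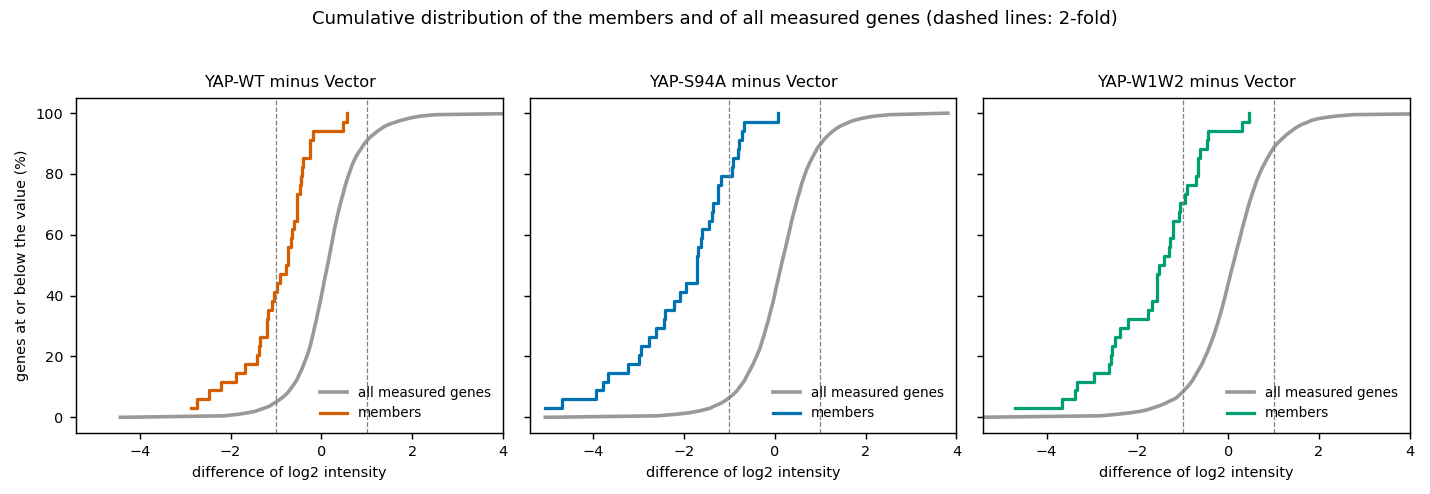
Cumulative share of genes (%, vertical axis) against the difference of log2 intensity from the vector array (horizontal axis), for the 34 members (coloured steps) and all 12759 measured genes (grey). In each panel the members lie left of all measured genes, with medians of -0.76, -1.72 and -1.47 against 0.14, 0.14 and 0.10; dashed lines mark 2-fold.

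FOXO proteins bind DNA at a core that reads GTAAACA on one strand and TGTTTAC on the other, and this core is shared with other forkhead factors. Promoter windows from RefSeq (build GRCh38.p14), which run from 250 bases before to 50 after a gene's start, were used for 30 of the 34 members, not for FBXO32, TP53INP1, BNIP3L and PINK1. Both strands were searched, and a gene counted when any of its windows matched. The 30 members had 46 windows and the 27305 genes in all had 35116, so windows per gene were not equal. The core stood in a window of 8 of the 30 members (26.7%) and in 1145 of 27305 genes in all (4.19%). With 1 more base, GTAAACAA, it stood in 6 of 30 members (20.0%) and 1.18% of all genes. Many of the members entered the list as described FOXO targets, so this share is no independent evidence, and a match is not a binding site. The matches are shown in the following lines because they mark the members whose promoter carries the letters FOXO proteins recognise. Each is a stretch of up to 61 bases read 5′ to 3′ on the strand of the gene, with the core in capitals:
SELENOP, chr5:42811904-42811964, minus strand: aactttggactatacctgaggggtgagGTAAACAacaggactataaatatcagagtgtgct
TXNIP, chr1:145996670-145996730, minus strand: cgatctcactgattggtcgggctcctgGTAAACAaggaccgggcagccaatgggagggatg
ARRDC3, chr5:91380093-91380153, minus strand: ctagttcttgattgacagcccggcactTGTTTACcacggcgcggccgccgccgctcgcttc
BTG1, chr12:92146022-92146082, minus strand: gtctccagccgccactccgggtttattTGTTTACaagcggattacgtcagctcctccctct
MXI1, chr10:110210053-110210113, plus strand: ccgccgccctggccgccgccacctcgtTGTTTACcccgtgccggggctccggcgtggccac
MXI1, chr10:110225967-110226027, plus strand: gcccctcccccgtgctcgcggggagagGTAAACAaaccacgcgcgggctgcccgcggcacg
HBP1, chr7:107168803-107168863, plus strand: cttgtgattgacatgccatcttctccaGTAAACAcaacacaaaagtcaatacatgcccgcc
YPEL3, chr16:30096180-30096240, minus strand: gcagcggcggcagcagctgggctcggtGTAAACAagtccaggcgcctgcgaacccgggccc
FOXO4, chrX:71095847-71095900, plus strand: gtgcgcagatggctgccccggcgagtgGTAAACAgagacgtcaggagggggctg

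The core stood 45 bases before the start of SELENOP, 29 before that of ARRDC3, 124 before that of TXNIP, 173 before that of HBP1 and 209 before that of BTG1. It began at the first transcribed base of YPEL3 and 24 bases into FOXO4. MXI1 has more than 1 start, and the core began 151 bases before 1 of them and 2 bases before another, which it spans. All these distances are to the first base of the core as printed. Only HBP1 and FOXO4 lacked the longer form. SELENOP, which differed strongly from vector in all 3 YAP cultures, is given with its whole window at chr5:42811843-42812142, and TXNIP with its own at chr1:145996530-145996829, both on the minus strand and with the core in capitals:
SELENOP promoter: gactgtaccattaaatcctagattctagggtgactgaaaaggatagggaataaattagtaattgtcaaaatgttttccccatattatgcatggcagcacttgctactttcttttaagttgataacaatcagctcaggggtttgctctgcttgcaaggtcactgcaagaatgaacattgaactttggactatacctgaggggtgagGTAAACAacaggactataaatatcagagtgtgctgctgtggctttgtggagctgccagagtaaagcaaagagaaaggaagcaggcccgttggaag
TXNIP promoter: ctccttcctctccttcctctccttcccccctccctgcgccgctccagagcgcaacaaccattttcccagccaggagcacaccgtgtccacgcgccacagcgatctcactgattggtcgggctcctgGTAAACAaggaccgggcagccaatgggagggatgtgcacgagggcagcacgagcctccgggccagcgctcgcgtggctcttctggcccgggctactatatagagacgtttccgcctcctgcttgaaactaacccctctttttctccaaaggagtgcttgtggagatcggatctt

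The 8 members with the core had a median log2 difference from vector of -1.27 in YAP-WT, -1.71 in YAP-S94A cells and -1.25 in YAP-W1W2 cells. The 22 members with a window and no core stood at -0.66, -1.67 and -1.54. The members with the core thus stood lower in YAP-WT, about level in YAP-S94A cells and less low in YAP-W1W2 cells. With the longer GTAAACAA the YAP-W1W2 order was not kept. The 6 members with it stood at -1.27, -1.71 and -1.53, and the 24 without it at -0.70, -1.67 and -1.47. The difference between the sets was not tested. Among measured genes outside the list, 361 had the core, of which 6.09% were at least 2-fold lower in YAP-WT, 8.59% in YAP-S94A cells and 12.2% in YAP-W1W2 cells. For the 9977 without it these shares were 4.51%, 6.13% and 7.88%. The gap in YAP-W1W2 was smaller with other letters. There 9.26% of genes with GTAAACAA were lower against 8.02% without, and 8.64% with GTAAAC against 7.98% without.

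The members of fuel use and oxidant defence were at least 2-fold lower with every form of YAP, except catalase in all 3 YAP cultures and ARRDC3 in YAP-W1W2. In YAP-WT 5 of 6 were at least 2-fold lower than in vector, in YAP-S94A 5 and in YAP-W1W2 4, with median log2 differences of -1.36, -2.47 and -2.20. PDK4, the kinase that shuts off pyruvate dehydrogenase and so spares glucose, read 256.7 in YAP-WT, 68.6 in YAP-S94A, 53.1 in YAP-W1W2 and 1882 in vector. Both mutant values lay below the floor of 72.9, so PDK4 was 7.33-fold lower in YAP-WT and at least 25.8-fold lower in each mutant. Its other measured probe set was lower too, at log2 differences of -2.35, -2.80 and -3.09.

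SELENOP encodes a secreted protein that carries selenium, which antioxidant enzymes need. It read 1131.2 in YAP-WT, 408.1 in YAP-S94A, 600.7 in YAP-W1W2 and 6252.7 in vector, or 5.53-fold, 15.3-fold and 10.4-fold lower. The stress regulator CREBRF, which represses the factor CREB3, followed the same order. It read 396.5 in YAP-WT, 107.2 in YAP-S94A, 162.6 in YAP-W1W2 and 1008 in vector, and its 5 probe sets were all lower in all 3 YAP cultures, by log2 values of -0.85 to -3.23.

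TXNIP and ARRDC3 belong to the alpha-arrestins, adaptors that take membrane proteins into the cell; TXNIP also binds thioredoxin and limits glucose uptake. TXNIP read 6109.1 in YAP-WT, 4219.5 in YAP-S94A, 4052.2 in YAP-W1W2 and 13724.3 in vector, so the mutants stood close together, 3.25-fold and 3.39-fold lower, and YAP-WT was 2.25-fold lower. ARRDC3 read 619.2 in YAP-WT, 522.7 in YAP-S94A, 1017 in YAP-W1W2 and 1608.1 in vector, and in YAP-W1W2 the difference of 1.58-fold did not reach 2-fold. Catalase (CAT), which breaks down hydrogen peroxide, did not share the pattern. It read 2998.7 in YAP-WT, 2118.2 in YAP-S94A, 2528 in YAP-W1W2 and 2036.2 in vector, all within 1.47-fold, and its other measured probe set went the other way, at log2 differences of -0.12, -0.46 and -0.12.

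**Figure D2:**
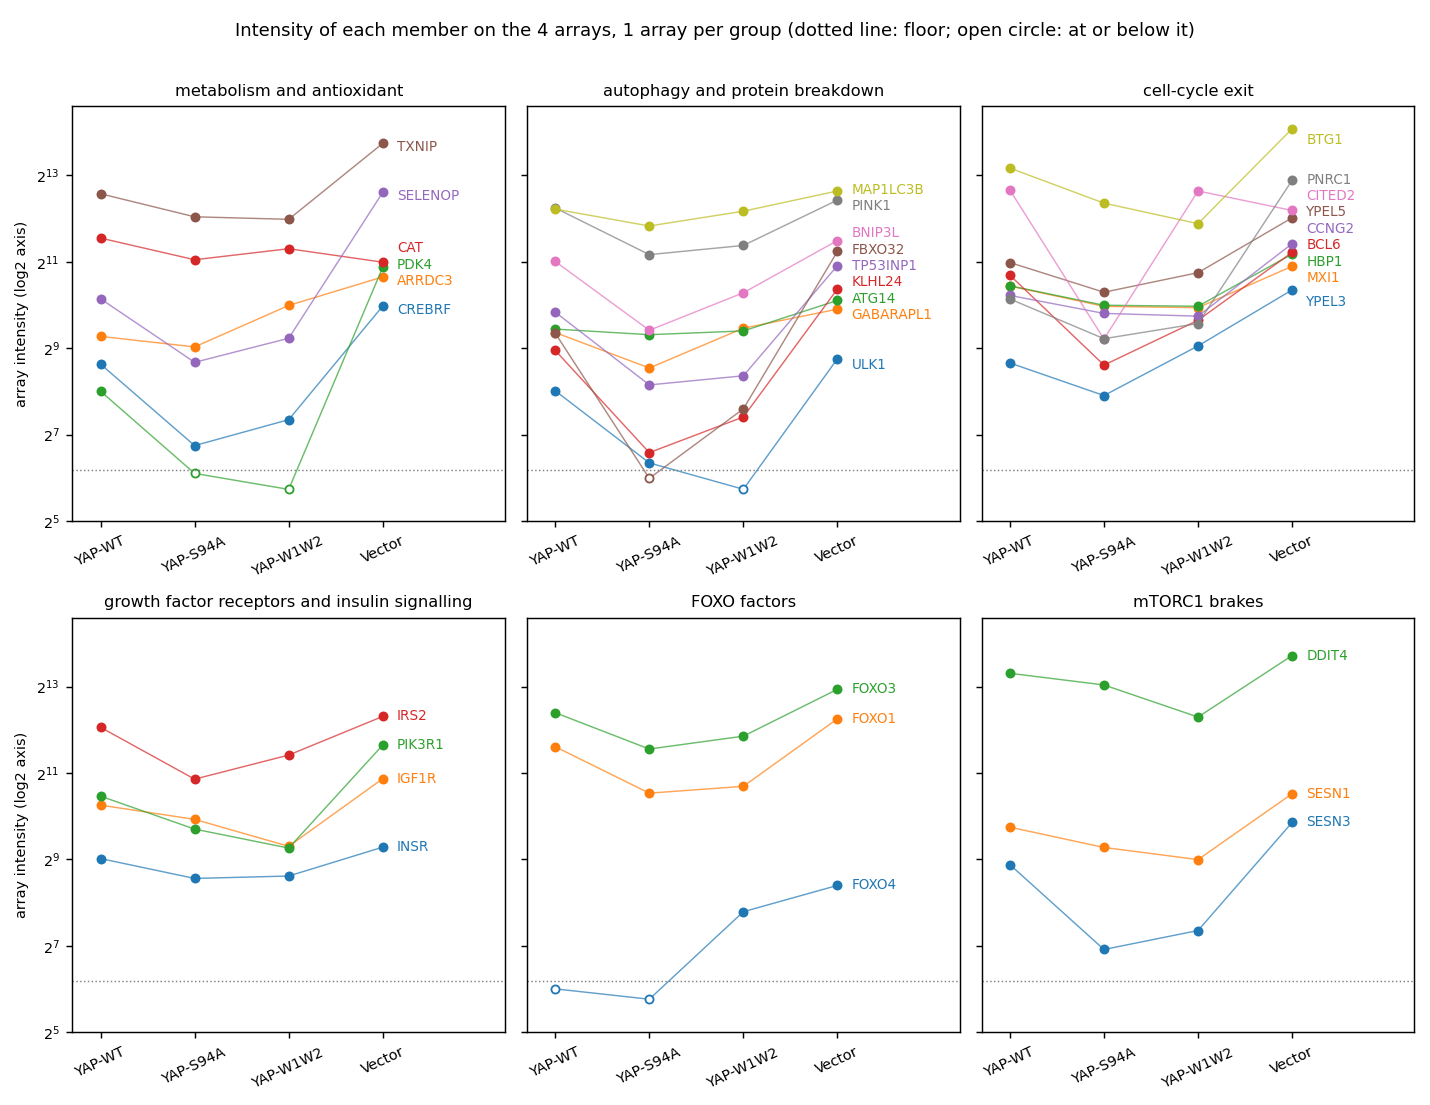
Array intensity (log2 axis) of each of the 34 members on the YAP-WT, YAP-S94A, YAP-W1W2 and vector arrays, in 6 panels by role; lines only join the values of 1 gene. The vector value is the highest for every member except CAT and CITED2, and open circles for PDK4, FBXO32, ULK1 and FOXO4 lie at or below the floor of 72.9 (dotted).

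Among the genes of autophagy and protein breakdown, FBXO32 and KLHL24 were at least 2-fold below vector in each YAP culture, and ATG14 and MAP1LC3B stayed within 2-fold of it. Of 9 members, 3 were at least 2-fold lower in YAP-WT than in vector, 7 in YAP-S94A cells and 6 in YAP-W1W2 cells, with medians of -0.66, -2.08 and -1.21. FBXO32, or atrogin-1, is a ubiquitin ligase subunit and a classical FOXO target of wasting muscle. FBXO32 read 652 in YAP-WT, 63.4 in YAP-S94A, 193.4 in YAP-W1W2 and 2421.6 in vector. It was 3.71-fold lower in YAP-WT, at least 33.2-fold in YAP-S94A cells and 12.5-fold in YAP-W1W2 cells, and its 4 measured probe sets were lower in all 3 YAP cultures.

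KLHL24 is a substrate adaptor of a ubiquitin ligase that acts on the keratin KRT14 in skin. It read 494 in YAP-WT, 95.8 in YAP-S94A, 169.8 in YAP-W1W2 and 1325.1 in vector, which made it 2.68-fold, 13.8-fold and 7.80-fold lower. The YAP-S94A value was the lowest and not far above the floor. The 4 measured probe sets of KLHL24 ran from -1.42 to -0.59 (log2) in YAP-WT, -3.79 to -1.12 in YAP-S94A and -2.96 to -1.46 in YAP-W1W2. In each culture the brightest gave the largest difference. TP53INP1, a stress protein that p53 induces and that promotes autophagy, read 913.3 in YAP-WT, 284 in YAP-S94A, 328.7 in YAP-W1W2 and 1928.7 in vector; its only measured probe set thus differed by 2.11-fold, 6.79-fold and 5.87-fold.

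Among the genes that build the autophagosome, the initiating kinase ULK1 differed most. It read 258.5 in YAP-WT, 81.2 in YAP-S94A, 53.2 in YAP-W1W2 and 432.5 in vector, so it was 1.67-fold lower in YAP-WT, 5.33-fold in YAP-S94A cells and at least 5.93-fold in YAP-W1W2 cells, by 1 measured probe set. ATG14, which directs the lipid kinase complex of autophagy to its site, read 696 in YAP-WT, 636 in YAP-S94A, 675.3 in YAP-W1W2 and 1102.3 in vector. All 3 differences stayed under 2-fold. MAP1LC3B, the LC3 protein that coats autophagosome membranes, read 4774 in YAP-WT, 3641.1 in YAP-S94A, 4615.7 in YAP-W1W2 and 6389.5 in vector, again under 2-fold, whereas its relative GABARAPL1 was 2.57-fold lower in YAP-S94A, with 658.4 in YAP-WT, 372.5 in YAP-S94A, 706.3 in YAP-W1W2 and 958.1 in vector.

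The mitophagy genes, which mark mitochondria for removal, differed with the mutants and hardly with YAP-WT. BNIP3L, a receptor on the mitochondrial surface, read 2060.1 in YAP-WT, 682.7 in YAP-S94A, 1246.5 in YAP-W1W2 and 2883.2 in vector. PINK1, the kinase that labels damaged mitochondria, read 4863.9 in YAP-WT, 2299.2 in YAP-S94A, 2664 in YAP-W1W2 and 5520.6 in vector. Their folds below vector were 1.40 and 1.14 in YAP-WT, 4.22 and 2.40 in YAP-S94A, and 2.31 and 2.07 in YAP-W1W2. The 2 probe sets of PINK1 disagreed in sign in YAP-WT, at -0.18 and 0.10.

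**Figure D3:**
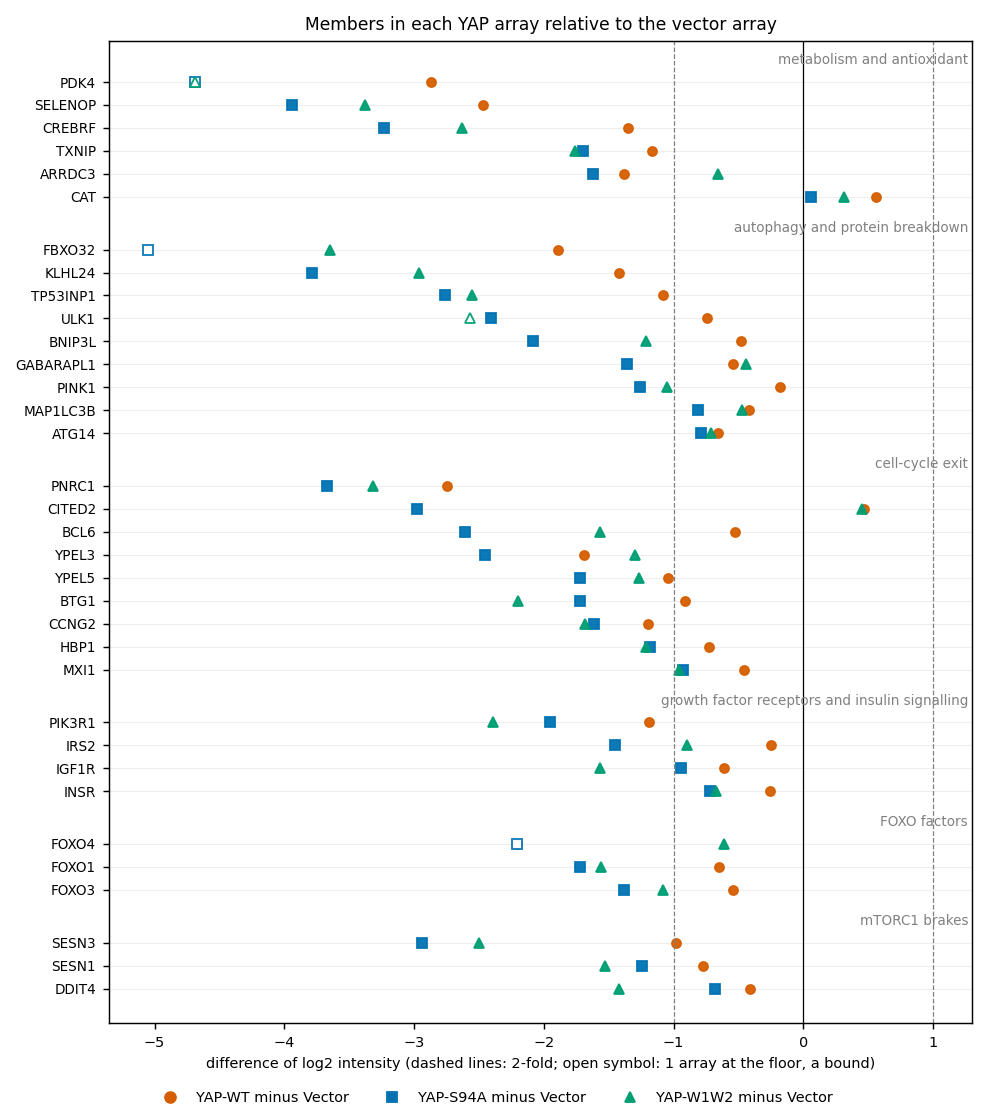
Difference of log2 intensity from the vector array (horizontal axis) for each member, by role, in YAP-WT (circles), YAP-S94A (squares) and YAP-W1W2 (triangles). Most symbols lie left of the dashed line at 2-fold lower, with CAT at 0.06 to 0.56 and CITED2 at -2.98 in YAP-S94A only; open symbols are bounds, and those of PDK4 in both mutants and of FOXO4 in YAP-WT and YAP-S94A coincide.

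Genes of cell-cycle exit were lower as well: of 9 found members 4 were at least 2-fold lower in YAP-WT than in vector, 8 in YAP-S94A cells and 7 in YAP-W1W2 cells, with medians of -0.91, -1.72 and -1.30. PNRC1, a proline-rich nuclear coregulator, differed most. It read 1128.8 in YAP-WT, 596.2 in YAP-S94A, 761 in YAP-W1W2 and 7581.5 in vector, and was 6.72-fold, 12.7-fold and 9.96-fold lower by its only measured probe set. CCNG2, an atypical cyclin made by cells that stop dividing, read 1194.4 in YAP-WT, 895 in YAP-S94A, 856.5 in YAP-W1W2 and 2740.3 in vector. It was 2.29-fold, 3.06-fold and 3.20-fold lower; 1 of its 5 probe sets was higher in YAP-W1W2, at a log2 difference of 0.31.

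BTG1, an antiproliferative protein that recruits an mRNA deadenylase, read 9224.6 in YAP-WT, 5253.9 in YAP-S94A, 3780 in YAP-W1W2 and 17346.8 in vector. Here YAP-W1W2 was the lowest, 4.59-fold below vector. YPEL3, a growth suppressor linked to senescence, read 404.1 in YAP-WT, 239.4 in YAP-S94A, 531.1 in YAP-W1W2 and 1304.7 in vector, so it was 3.23-fold, 5.45-fold and 2.46-fold lower. Its relative YPEL5, part of a ubiquitin ligase complex, read 2024.8 in YAP-WT, 1257.4 in YAP-S94A, 1720.5 in YAP-W1W2 and 4152.3 in vector, or 2.05-fold, 3.30-fold and 2.41-fold lower.

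Of the repressors among these genes, HBP1 and BCL6 passed 2-fold with both mutants and MXI1 with neither. MXI1, which competes with MYC for its partner MAX, read 1389.1 in YAP-WT, 1002.6 in YAP-S94A, 981.1 in YAP-W1W2 and 1907.1 in vector, and stayed just under 2-fold. HBP1, an HMG-box repressor of cell-cycle genes, read 1393.4 in YAP-WT, 1020.2 in YAP-S94A, 1003.9 in YAP-W1W2 and 2318.5 in vector. It was 1.66-fold, 2.27-fold and 2.31-fold lower, so both mutants passed 2-fold. BCL6, a zinc-finger repressor known from germinal-centre B cells, was 1.44-fold lower in YAP-WT, 6.10-fold in YAP-S94A cells and 2.97-fold in YAP-W1W2 cells, with 1652.8, 390.4 and 801.6 against 2383.3 in vector.

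CITED2, which binds the coactivators CBP and p300 and limits hypoxia signalling, was the member that set YAP-S94A apart. It read 6487.6 in YAP-WT, 592.7 in YAP-S94A, 6387.6 in YAP-W1W2 and 4670.9 in vector. Its intensity was thus 7.88-fold below vector in YAP-S94A, and 1.39-fold and 1.37-fold above vector in YAP-WT and YAP-W1W2. The second measured probe set had the same signs, with log2 differences of 1.09 in YAP-WT, -1.77 in YAP-S94A cells and 0.91 in YAP-W1W2 cells.

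Receptors and adaptors of insulin signalling, which lie upstream of FOXO proteins and are also among their targets, had medians closer to vector than the other roles in YAP-WT and YAP-S94A, but not in YAP-W1W2. Of 4 members 1 was at least 2-fold lower in YAP-WT than in vector, 2 in YAP-S94A cells and 2 in YAP-W1W2 cells, with medians of -0.44, -1.20 and -1.23. PIK3R1, the regulatory subunit of PI3-kinase, read 1413.3 in YAP-WT, 833.1 in YAP-S94A, 614.2 in YAP-W1W2 and 3213.4 in vector, or 2.27-fold, 3.86-fold and 5.23-fold lower. All 3 of its probe sets passed 2-fold in each YAP culture. IRS2, an adaptor that passes the signal from the receptors to PI3-kinase, read 4267.4 in YAP-WT, 1857.2 in YAP-S94A, 2734.5 in YAP-W1W2 and 5085.8 in vector, and passed 2-fold only in YAP-S94A, at 2.74-fold lower.

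The receptors themselves gave weaker and less uniform values. IGF1R, the receptor for insulin-like growth factors, read 1223.9 in YAP-WT, 974.1 in YAP-S94A, 631.8 in YAP-W1W2 and 1872.4 in vector, and was 2.96-fold lower in YAP-W1W2. Its 4 measured probe sets ran from -2.30 to -0.20 there. INSR, the insulin receptor, read 519.1 in YAP-WT, 377.3 in YAP-S94A, 392.3 in YAP-W1W2 and 623.5 in vector. Those differences were under 2-fold, and its 4 measured probe sets ran in both directions in each YAP culture, from -0.82 to 1.06 in YAP-W1W2, so no direction is given for INSR.

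The FOXO factors were themselves lower, though AKT controls them mainly after translation. FOXO1 read 3125.4 in YAP-WT, 1483.3 in YAP-S94A, 1655.3 in YAP-W1W2 and 4893.7 in vector, or 1.57-fold, 3.30-fold and 2.96-fold lower. FOXO3 read 5395.6 in YAP-WT, 3011.6 in YAP-S94A, 3704.2 in YAP-W1W2 and 7857.4 in vector, or 1.46-fold, 2.61-fold and 2.12-fold lower. For both genes the mutants passed 2-fold and YAP-WT did not, and no measured probe set went the other way. FOXO4 read 64.1 in YAP-WT, 54.3 in YAP-S94A, 221.2 in YAP-W1W2 and 337.4 in vector; it was at least 4.63-fold lower in YAP-WT and in YAP-S94A and 1.53-fold lower in YAP-W1W2, by 1 dim probe set.

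Of the 3 brakes on the growth kinase mTORC1, 0 were at least 2-fold lower than vector in YAP-WT, 2 in YAP-S94A cells and 3 in YAP-W1W2 cells. The sestrins restrain mTORC1 when amino acids are short. SESN3 read 471.1 in YAP-WT, 120.6 in YAP-S94A, 163.6 in YAP-W1W2 and 926.6 in vector, or 1.97-fold, 7.68-fold and 5.66-fold lower by its 1 measured probe set. SESN1 read 859.1 in YAP-WT, 620.5 in YAP-S94A, 510.6 in YAP-W1W2 and 1470 in vector, or 1.71-fold, 2.37-fold and 2.88-fold lower. DDIT4, which acts on mTORC1 through the TSC complex, read 10160.7 in YAP-WT, 8423.8 in YAP-S94A, 5033.8 in YAP-W1W2 and 13499.9 in vector. Only YAP-W1W2 passed 2-fold for DDIT4, at 2.68-fold lower.

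Setting the mutants directly against YAP-WT leaves the vector array out, but not the choice of the list. The list was drawn up with results of the mutant arrays known, so these counts are a description too and no independent check. In YAP-S94A 14 of 34 members were at least 2-fold lower than in YAP-WT and 0 higher, with 6.27% of measured genes lower and 5.06% higher. The median of the members was -0.82, where the median gene stood at 0.01. Autophagy and protein breakdown genes were the role furthest below YAP-WT, with 6 of 9 lower and a median of -1.59. CITED2 was 10.9-fold lower in YAP-S94A than in YAP-WT, FBXO32 at least 8.94-fold, KLHL24 5.16-fold, BCL6 4.23-fold and SESN3 3.91-fold, and the others past 2-fold were CREBRF (3.70-fold), PDK4 (at least 3.52-fold), TP53INP1 (3.22-fold), ULK1 (3.18-fold), BNIP3L (3.02-fold), SELENOP (2.77-fold), IRS2 (2.30-fold), PINK1 (2.12-fold) and FOXO1 (2.11-fold).

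In YAP-W1W2 11 of 34 members were at least 2-fold lower than in YAP-WT and 1 higher, with 5.59% of measured genes lower and 3.91% higher. The median was -0.68, where the median gene stood at -0.04. ULK1 was at least 3.55-fold and PDK4 at least 3.52-fold lower, FBXO32 3.37-fold, KLHL24 2.91-fold, SESN3 2.88-fold and TP53INP1 2.78-fold. CREBRF and BTG1 were 2.44-fold lower each, PIK3R1 2.30-fold, BCL6 2.06-fold and DDIT4 2.02-fold. FOXO4 was the 1 member past 2-fold higher, at least 3.03-fold in YAP-W1W2 against YAP-WT, by 1 dim probe set at the floor in YAP-WT. ARRDC3, YPEL3 and GABARAPL1 were also above YAP-WT, under 2-fold, at log2 differences of 0.72, 0.39 and 0.10. Both comparisons with YAP-WT share its array.

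Between the mutants the differences were smaller and ran mostly the other way. In YAP-W1W2 0 of 34 members were at least 2-fold lower than in YAP-S94A and 5 higher, with 4.45% of measured genes lower and 4.98% higher, and the median was 0.28, where the median gene stood at -0.07. The 5 were CITED2 (10.8-fold higher), FOXO4 (at least 3.03-fold), FBXO32 (at least 2.65-fold), YPEL3 (2.22-fold) and BCL6 (2.05-fold). DDIT4, IGF1R, BTG1 and PIK3R1 stood below YAP-S94A by log2 values of -0.74, -0.62, -0.48 and -0.44, under 2-fold. PDK4 was at or below the floor in both mutants and has no fold between them.

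**Figure D4:**
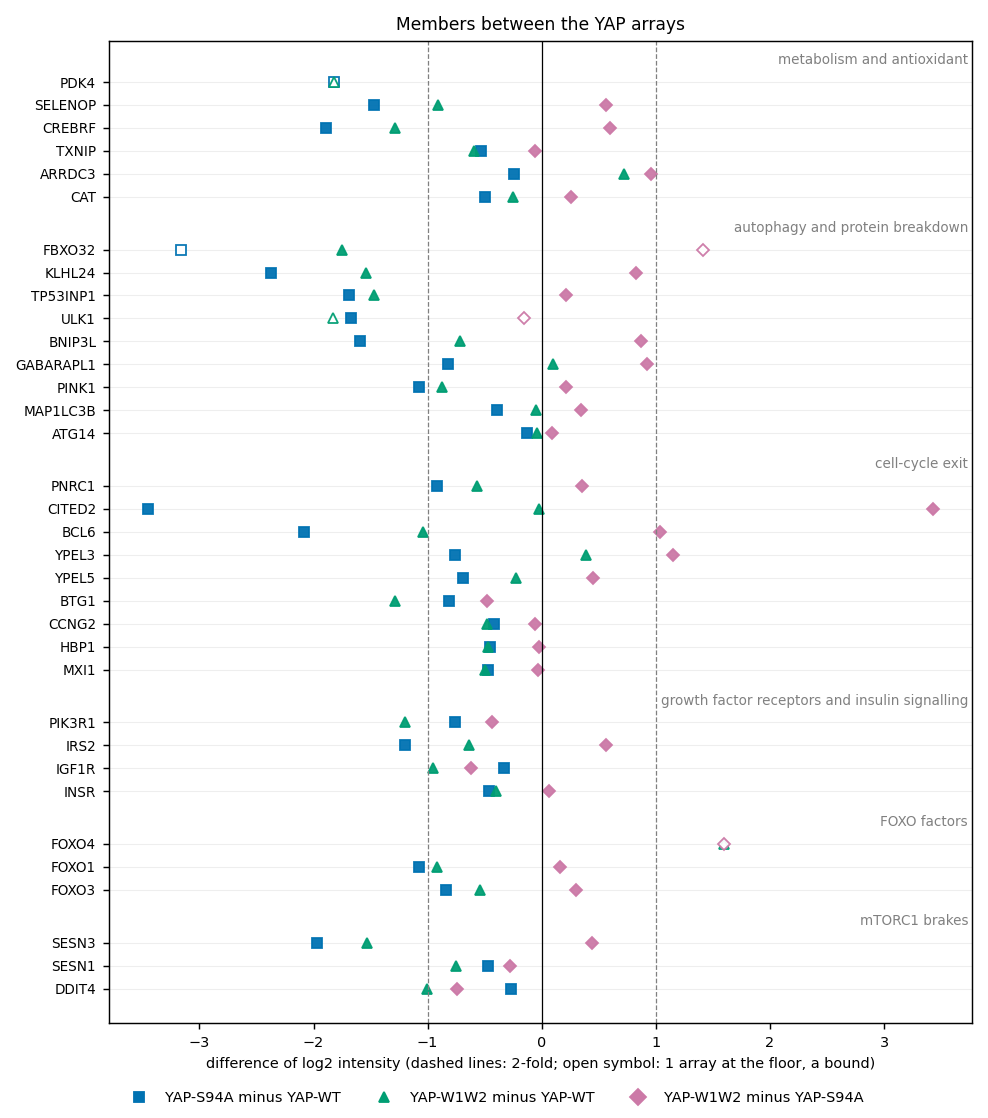
Difference of log2 intensity (horizontal axis) for each member between YAP-S94A and YAP-WT (squares), YAP-W1W2 and YAP-WT (triangles) and YAP-W1W2 and YAP-S94A (diamonds). Squares and triangles lie mostly left of 0, and CITED2 stands out at -3.45 in YAP-S94A against YAP-WT and 3.43 in YAP-W1W2 against YAP-S94A; open symbols are bounds and dashed lines mark 2-fold.

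Several members had more than 1 measured probe set, which see other parts of a transcript on the same arrays and are no replicates of a culture. The 34 members had 74 measured probe sets, of which 40 were not the brightest of their gene. Of these 40, 15 were at least 2-fold lower than vector in YAP-WT and 1 higher, 30 lower and 0 higher in YAP-S94A, and 27 lower and 1 higher in YAP-W1W2. Their medians were -0.74, -1.54 and -1.27. No such share was computed over the further probe sets of all genes, so these counts have nothing to be set against. Of 21 members with several measured probe sets, 5 had both signs in YAP-WT (CAT, IGF1R, INSR, IRS2 and PINK1), 2 in YAP-S94A (CAT and INSR) and 3 in YAP-W1W2 (CAT, CCNG2 and INSR). When log2 values were averaged over all probe sets of a gene, dim ones included, some members no longer reached 2-fold against vector. In YAP-WT these were 5, SELENOP (-0.92), KLHL24 (-0.93), TP53INP1 (-0.36), YPEL3 (-0.85) and YPEL5 (-0.75). In YAP-S94A they were 3, TP53INP1 (-0.92), HBP1 (-0.66) and SESN3 (-0.73). In YAP-W1W2 they were 6, TP53INP1 (-0.85), PINK1 (-0.88), HBP1 (-0.67), YPEL3 (-0.65), YPEL5 (-0.99) and SESN3 (-0.57). The same was true of PDK4, SELENOP, TP53INP1, FOXO1 and SESN3 for YAP-S94A against YAP-WT, and of PDK4, CREBRF, FBXO32, TP53INP1, BTG1, BCL6 and SESN3 for YAP-W1W2 against YAP-WT. Between YAP-W1W2 and YAP-S94A it held for FBXO32 (0.15), YPEL3 (0.57) and BCL6 (0.89).

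**Figure D5:**
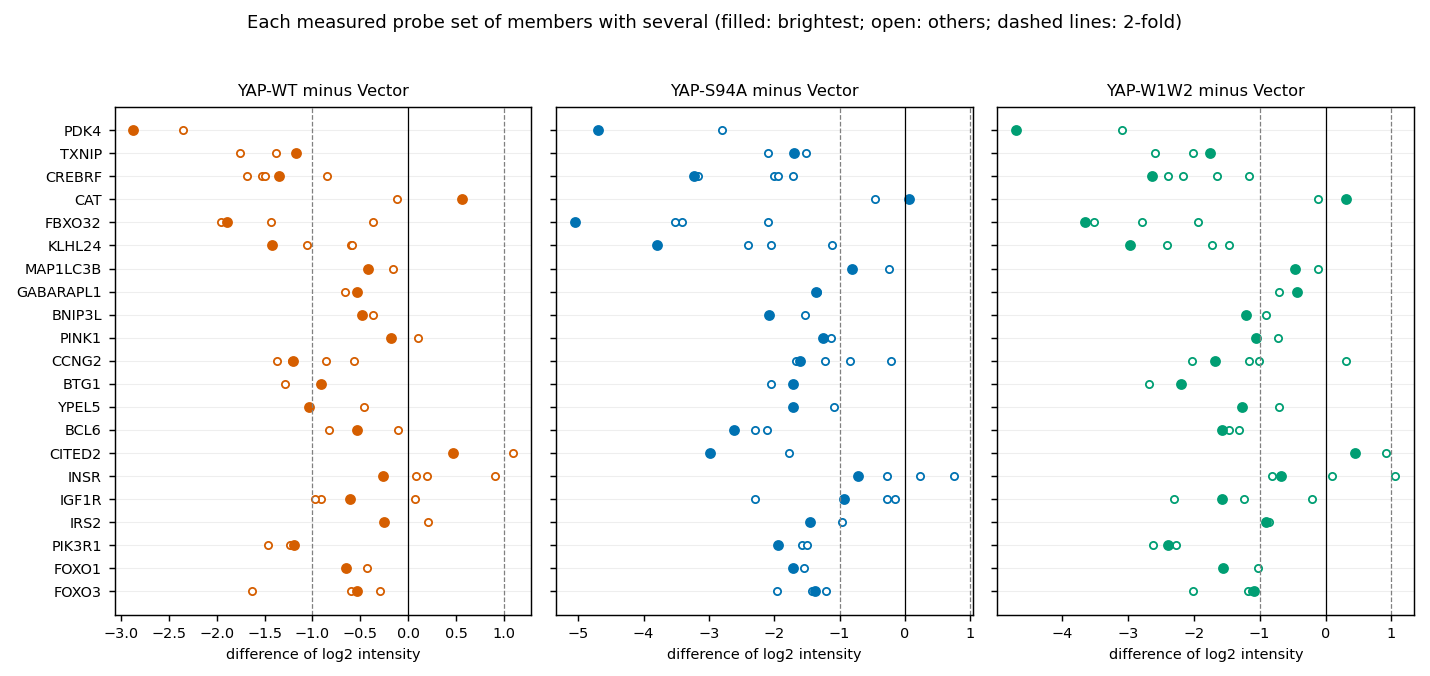
Difference of log2 intensity from the vector array (horizontal axis) for every measured probe set of the 21 members with more than 1, filled for the brightest and open for the others. Probe sets of 1 gene mostly share a sign, apart from CAT, IGF1R, INSR, IRS2 and PINK1 in YAP-WT, CAT and INSR in YAP-S94A, and CAT, CCNG2 and INSR in YAP-W1W2; horizontal scales differ between panels.

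Other genes of the pathway differed in both directions. Of 17 measured genes of the PI3-kinase, AKT and mTOR pathway, 1 was at least 2-fold lower and 1 higher in YAP-WT than in vector, 3 lower and 1 higher in YAP-S94A, and 3 lower and 1 higher in YAP-W1W2, with medians of 0.13, -0.21 and -0.31. The lower ones made up 5.88% of this list in YAP-WT, where 4.95% of all measured genes were lower, and 17.6% in each mutant, where 6.53% were lower in YAP-S94A and 8.40% in YAP-W1W2. The adaptor IRS1 read 606.1 in YAP-WT, 169.3 in YAP-S94A, 61.0 in YAP-W1W2 and 506.2 in vector, so it was low in the mutants alone. SGK1, a kinase that phosphorylates FOXO proteins as AKT does, read 14475.1 in YAP-WT, 3578.5 in YAP-S94A, 18231.3 in YAP-W1W2 and 4619 in vector. It was 3.13-fold and 3.95-fold above vector in YAP-WT and YAP-W1W2 and under 2-fold below it in YAP-S94A.

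Of 15 measured FOXO regulators 0 were lower and 2 higher in YAP-WT, 2 lower and 2 higher in YAP-S94A, and 1 lower and 2 higher in YAP-W1W2, with medians of 0.28, 0.26 and 0.21, and the share lower was 13.3% in YAP-S94A and 6.67% in YAP-W1W2. The higher regulators were SKP2, the ubiquitin ligase subunit that marks FOXO1 for breakdown, and FOXM1, the forkhead factor of dividing cells. SKP2 read 6223.8 in YAP-WT, 2742.5 in YAP-S94A, 8483.2 in YAP-W1W2 and 1316.2 in vector, and FOXM1 1640.3, 1537.4 and 1517.6 against 291.1 in vector. A list of 12 proliferation genes was at least 2-fold higher throughout in each YAP culture, with medians of 2.00, 2.16 and 1.84. Of all measured genes 9.11%, 10.3% and 11.4% were higher. Between the YAP cultures 0 of the 12 differed by 2-fold, where 3.91% to 6.27% of all measured genes did in either direction. A count of 0 of 12 is too small to set the list apart there.

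Further described FOXO targets that are not in the list differed in both directions. Of 16 measured, 3 were lower and 2 higher in YAP-WT than in vector, 3 lower and 2 higher in YAP-S94A, and 6 lower and 3 higher in YAP-W1W2, with medians of 0.00, -0.28 and -0.06. The share lower was 18.8% in YAP-WT and in YAP-S94A and 37.5% in YAP-W1W2, above the 4.95%, 6.53% and 8.40% of all measured genes. Beside the genes that were higher stand 9.11%, 10.3% and 11.4% of all measured genes. The median measured gene stood at 0.14, 0.14 and 0.10. No test of these differences was possible. The mitochondrial superoxide dismutase SOD2 read 822.6 in YAP-WT, 380.2 in YAP-S94A, 540.6 in YAP-W1W2 and 2929.9 in vector. RBL2, the pocket protein p130 of quiescent cells, read 1129.8 in YAP-WT, 752.4 in YAP-S94A, 502.8 in YAP-W1W2 and 1857.3 in vector. The counts do not separate targets that FOXO proteins induce from those they repress. Cyclin D1 (CCND1), which FOXO proteins repress, was among the higher genes in each YAP culture. It read 3163.3 in YAP-WT, 3123.3 in YAP-S94A, 3456.6 in YAP-W1W2 and 1012.1 in vector. Of 19 measured further autophagy genes, 0 differed from vector by 2-fold in either direction with wild-type YAP or with YAP-W1W2. With YAP-S94A 2 were lower and 0 higher. The 2 were MAP1LC3A and LAMP2, just past 2-fold at log2 differences of -1.10 and -1.01. They made up 10.5% of this list, where 6.53% of all measured genes were lower in YAP-S94A. A count of 2 is too small to set the list apart from measured genes in general. The medians were -0.12 (YAP-WT), -0.32 (YAP-S94A) and -0.06 (YAP-W1W2).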

How the data were processed

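Total RNA of 4 cultures was labelled with biotin and hybridised to Affymetrix arrays, per the labels' protocols. The deposited values are intensities on a linear scale, made by the authors with GCOS, per the submitters' processing notes; its version, scaling target and detection calls are not stated there. The table held 54675 probe sets, 62 of them controls, and 41097 had 1 gene symbol in the platform annotation. The 2% trimmed means of the arrays differed by a factor of 1.098, so no rescaling was applied. Intensities below 72.9, the 40th percentile, were raised to this floor before conversion to log2, so a fold against an array at the floor is a lower bound ("at least"). Each gene was represented by its brightest probe set with 1 symbol, and was taken as measured from a mean intensity of 113.6, the median of all probe sets. Precision is limited by the number of arrays, and no test was possible.

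The members and lists were chosen with earlier results of these data known. All members may be named. Of each list of other genes, at most the 4 measured genes with the largest difference from vector were named by rule. Other markers named to check the cell type, and also CCND2 and CDKN1A, were chosen after their values were seen. Of the other listed genes, several have no probe set with 1 symbol here and were not used. Promoter windows came from RefSeq (GRCh38.p14). Calculations used Python 3.11.15, pandas 2.3.3 and NumPy 2.4.6, and were tested on simulated data. The alternatives were other scalings, floors, probe sets, filters, sizes of change and motif letters.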

Additional observations from a re-analysis of the deposited data

How the results depend on the processing

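No member that differed by at least 2-fold in the main setting turned its direction under any alternative, and median centring, quantile normalisation, a floor at the 20th percentile, a pseudocount of 16 without a floor and no filter on dim genes left every count within 1.5 times and every median within 0.25 (log2). With the mean of log2 over all probe sets of a gene, dim ones included, the median was -1.38 for YAP-S94A and -1.08 for YAP-W1W2 against vector and -0.51 for YAP-S94A against YAP-WT; 9 members were lower in YAP-S94A (3.91% of measured genes) and 4 in YAP-W1W2 (3.32%) than in YAP-WT, and 2 higher in YAP-W1W2 than in YAP-S94A (3.07%). When probe sets marked _s_at or _x_at were left out, 22 members had a value; the median was -1.03 for YAP-WT and -2.31 for YAP-S94A against vector, and 17 members were lower in YAP-S94A (7.12% of measured genes) and 15 in YAP-W1W2 (9.30%) than in vector. At 1.5-fold, 22 members were lower in YAP-WT than in vector (11.3% of measured genes), 19 lower (15.2%) and 2 higher (11.1%) in YAP-W1W2 than in YAP-WT, and 2 lower (13.2%) and 10 higher (11.9%) in YAP-W1W2 than in YAP-S94A. At 3-fold, 6 were lower in YAP-WT (1.59%) and 13 in YAP-W1W2 (3.38%) than in vector, 3 lower in YAP-W1W2 than in YAP-WT (1.35%), and 2 higher in YAP-W1W2 than in YAP-S94A (1.77%). No paired analysis was possible because each group has 1 array. The motif was in 6 members as GTAAACAA and in 8 as GTAAAC, with 8.73% of all genes for the shorter form. The floor limits PDK4, FBXO32, ULK1 and FOXO4, whose folds are bounds in some cultures.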
